A study of Mus musculus with 40 samples.

Results

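The genes described here encode the protein factors of mRNA translation and the aminoacyl-tRNA synthetases that charge tRNAs, measured in the bone marrow of untreated mice and of mice given cyclophosphamide. They were taken by symbol, as every annotated gene whose name begins with Eif followed by a digit from 1 to 6 or with Eef1 or Eef2, the release factor genes Etf1 and Gspt, and the synthetase genes named by an amino acid letter and ars, with or without a final 1 or 2, plus Eprs, Eprs1, Farsa and Farsb. The platform annotation held 57 such genes, and 32 of them (56.1%) had a value in at least 3 mice of each of the 4 groups and are the members described. Of the other 25 genes, 12 had no value in any mouse and 13 had values in too few mice. The rule used symbols and the number of values, not the direction or size of any change. It was set with earlier results of these data known.

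Translation starts when eIF2 brings the initiator tRNA to the small ribosomal subunit, eIF3 holds the subunit and its partners together, and the eIF4F complex binds the mRNA cap and unwinds the leader. The eEF1 factors then deliver charged tRNAs to the elongating ribosome, and the synthetases join each amino acid to its tRNA, with separate enzymes for the cytosol and the mitochondrion. Dividing marrow precursors make much protein, and phosphorylation of eIF2 under stress lowers initiation while it favours the translation of Atf4, a transcription factor whose known targets include several synthetase genes.

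RNA of bone marrow cells came from 20 mice of the inbred strain DBA/2, with 5 untreated control mice and 5 mice each at 1, 2 and 5 days after an intraperitoneal injection of 83 mg/kg cyclophosphamide, a drug whose products cross-link DNA. Each mouse was measured on 2 arrays of 2 dyes, with the mouse in Cy5 and a common reference in Cy3, and the series compares marrow across these days. The labels call the reference a pool of untreated marrow, yet its treatment field names cyclophosphamide. The reference is the same on every array and cancels between groups, but a ratio against it has no absolute meaning, so levels are not compared between genes. Ages and sexes of the mice are not used here, and whole marrow is a mixture of cell types.

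The values are log ratios of mouse over reference, taken as log2, an assumption, since no source used here gives their base; if the base were e, every fold would be larger than stated. Between 4079 and 7977 probes had a value on an array, and array medians lay between -0.015 and 0.007. The 2 arrays of a mouse correlated at 0.683 to 0.957 and were averaged, so n counts mice. Control mouse 4 and day 1 mouse 1 were least like the rest of their groups. Their mean correlations to the other mice of the group were 0.239 and 0.354. Calls lost without either of them, or without them together, are named below. Of the markers listed for other cell types and for division, 5 of 6 tested mitosis genes and both tested B cell precursor and granulocyte precursor markers were lower on day 1, while 2 of 5 macrophage, 3 of 6 endothelial and stromal and 1 of 3 megakaryocyte markers were higher. Of 7 erythroid and 6 late neutrophil markers, 1 each (Alas2 and Csf3r) was higher on day 1. Of 5 annotated T cell markers 0 had enough values to be tested. On day 2 all 6 mitosis genes, both B cell precursor, 0 of 2 granulocyte precursor, 4 of 6 late neutrophil and 3 of 7 erythroid markers were lower, and 5 of 5 macrophage, 5 of 6 endothelial and stromal and 2 of 3 megakaryocyte markers were higher. Over all genes tested, 8.38% were lower and 10.7% higher on day 1, and 9.61% each on day 2. A ratio gives no level, so a marker at 0 cannot be read from these values.

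Over all 5297 genes and unnamed probes tested, 30.7% differed among the 4 groups by limma's moderated F test at an adjusted p under 0.05, and 13 of the 32 members (40.6%) did. These were Eif3k, Eif3i, Eif3j1, Eif2b2, Eif4h, Eif4enif1, Eif1b, Eif1ad, Eif6, Eef1a1, Eef1b2, Iars and Fars2. For genes with blank values this F test is approximate. On day 1, 10 members passed against control by limma's moderated test, against 19.1% of all genes tested. Of these, 8 were lower (25% of the 32), where the share of all genes was 8.38%, and 2 were higher, where it was 10.7%. Without day 1 mouse 2, only 2 of 30 members were lower and 2 higher, where 13.0% of all genes passed in either direction. With control and day 1 fitted alone, 4 of 32 were lower and 2 higher, where 12.1% of all genes passed. All 8 that fell act in or on the initiation of translation, a class that holds 16 of the 32 members. The day 1 median was -0.31 over these 16 and -0.27 over the 5 elongation members. It was -0.23 over the 8 cytosolic synthetases and 0.13 over the 3 mitochondrial ones. The median log2 fold change of the 32 members on day 1 was -0.26, and 24 lay below 0, while the median over all genes tested was -0.01 with 52.2% below 0. In bulk marrow, fewer cells of a type and less RNA per cell cannot be told apart.

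The median over the 19 members measured in all 20 mice ran from -0.051 to 0.052 in control mice and from -0.434 to -0.058 in mice of day 1, so these groups did not overlap, by a narrow margin. The lowest was day 1 mouse 2 and the highest of that day was day 1 mouse 1. On day 2 it ran from -0.107 to 0.102 and on day 5 from -0.019 to 0.148, both overlapping the control range. The mean log2 ratio over the 6 tested mitosis genes, of 12 annotated, ran from -0.03 to 0.25 in control mice, from -0.88 to -0.34 on day 1, from -1.07 to -0.5 on day 2 and from -0.01 to 0.25 on day 5. The mean over the 2 tested granulocyte precursor markers ran from 0.23 to 0.82 in control mice, from -0.95 to 0.18 on day 1, from 0.18 to 0.68 on day 2 and from 1.16 to 1.92 on day 5. On day 1 both of these means lay below their control ranges without overlap. On day 2 the granulocyte precursor mean overlapped its control range, and the mitosis mean still lay below its own. The mean over the 2 B cell precursor markers ran from -0.08 to 0.56 in control mice and from -1.03 to -0.09 on day 1. It ran from -1.97 to -0.63 on day 2 and from -1.82 to -0.34 on day 5. Erythroid, late neutrophil and megakaryocyte means overlapped their control ranges on day 1 but not on day 2. The mean over the 5 macrophage markers ran from -0.39 to 0.2 in control mice, from 0.37 to 0.8 on day 1, from 0.66 to 1.42 on day 2 and from -0.62 to -0.16 on day 5. For the 6 endothelial and stromal markers it ran from -0.22 to -0.1 in control mice and from 0.29 to 0.75 on day 1. It then ran from 0.37 to 0.7 on day 2 and from -0.43 to -0.05 on day 5. Each mitosis or marker mean used the genes with a value in that mouse, so it can rest on fewer genes than were tested. The part of cell division or cell makeup in the members' values was not tested.

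**Figure D1:**
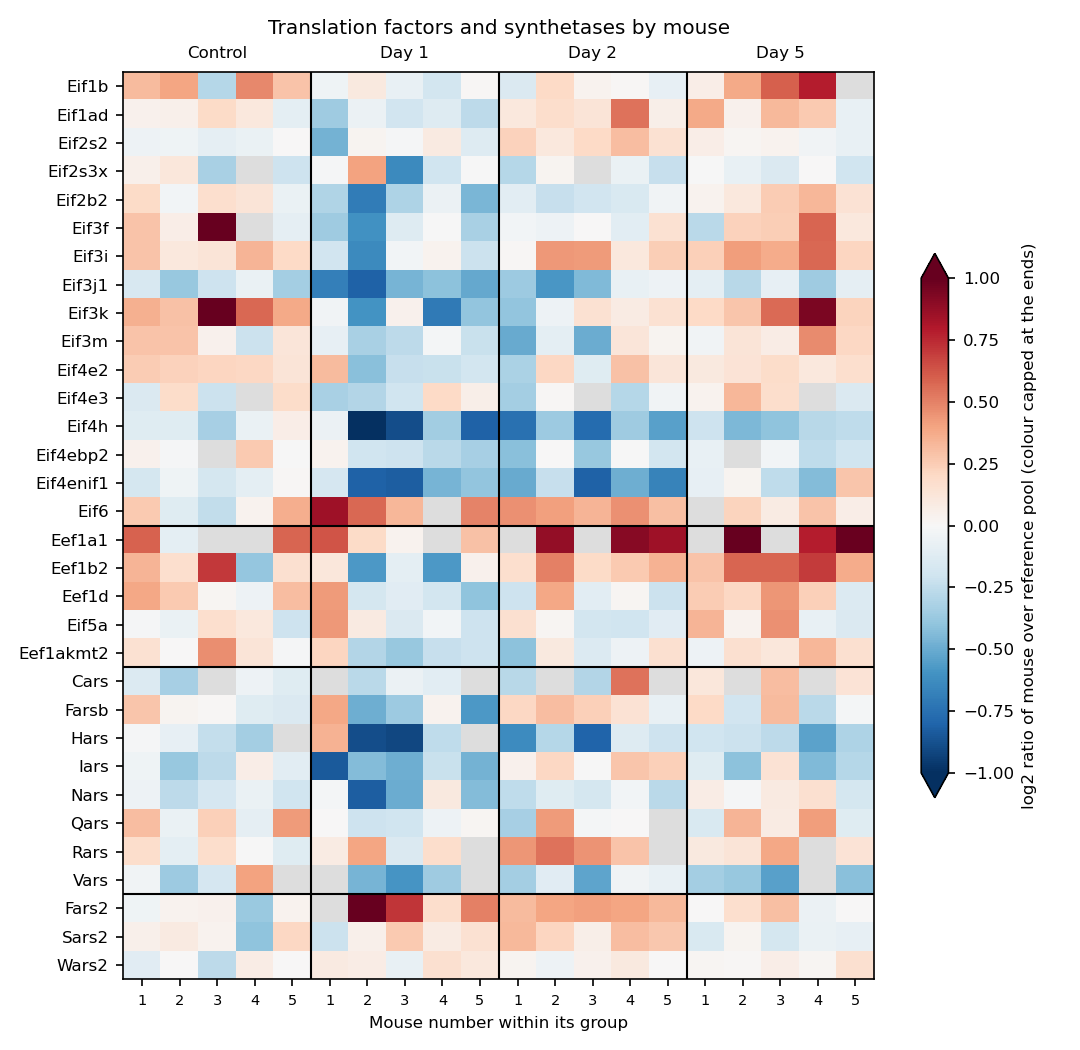
Colour shows the log2 ratio of each mouse over the reference pool for the 32 members (rows, by role) in the 20 mice (columns, in 4 groups of 5), with colour capped at -1 and 1 and blanks in grey. Lines separate initiation factors, elongation factors, cytosolic synthetases and mitochondrial synthetases. Most initiation factor rows are bluer on day 1 than in control mice, and Eif6 and Fars2 are redder.

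The scaffold eIF3 held the most called members. Of its 5 measured subunits 4 were lower on day 1, namely Eif3k, Eif3f, Eif3i and Eif3j1, where 8.38% of all genes were. Without day 1 mouse 2 only the call of Eif3k held. The fifth subunit, Eif3m, had a log2 fold change of -0.28 that did not pass. The median over the 5 was -0.42.

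Eif3k encodes a peripheral subunit that budding yeast lacks. Its log2 ratios were 0.36, 0.29, 0.99, 0.57 and 0.38 in the 5 control mice and -0.04, -0.60, 0.05, -0.71 and -0.39 in the mice of day 1. All control mice lay above all mice of day 1, and control mouse 3 was the highest. The means were 0.52 ± 0.29 (SD, n = 5) and -0.34 ± 0.33 (SD, n = 5), a log2 fold change of -0.86 ± 0.17 (SE), or 1.81-fold lower, with an adjusted p of 0.00164 by limma. On day 2 the values were -0.40, -0.05, 0.15, 0.08 and 0.15, which again did not overlap the control range. For day 2 the log2 fold change was -0.53 ± 0.17 with a limma adjusted p of 0.0296. On day 5 the values were 0.20, 0.28, 0.57, 0.94 and 0.22, spanning much the same range as in control mice. The day 1 call held in every fit that left out a mouse, while the day 2 call was lost without control mouse 3 (0.0932), control mouse 4 (0.056) and day 2 mouse 1 (0.101), adjusted p by limma in brackets.

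Eif3f encodes a subunit with an MPN domain. It was measured in 4 control mice, at 0.29, 0.07, 1.01 and -0.09, and in all mice of day 1, at -0.35, -0.61, -0.13, -0.0011 and -0.33. Control mouse 3 stood well above the others, and the lowest control mouse lay among the mice of day 1. The log2 fold change was -0.6 ± 0.18 (1.52-fold lower, limma adjusted p 0.0228). Without control mouse 3 it was -0.37 ± 0.16 and no longer called (adjusted p 0.111), nor was it called without day 1 mouse 2 (0.0663) or with the 2 groups fitted alone (0.054). On days 2 and 5 Eif3f did not pass.

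Eif3i, a WD-repeat subunit of the conserved core, was 1.34-fold lower on day 1, by -0.42 ± 0.12 on the log2 scale (limma adjusted p 0.0173). Control mice lay between 0.11 and 0.34 and mice of day 1 between -0.63 and 0.03, without overlap. The call was lost without day 1 mouse 2 (adjusted p 0.0589). Between day 1 and day 2 Eif3i rose by 0.45 ± 0.12 (1.37-fold, limma adjusted p 0.0425), with values of 0.01, 0.43, 0.43, 0.11 and 0.24 on day 2. This rise lost its call in 12 fits without 1 mouse, namely without control mice 1, 2 or 5, day 1 mice 1, 2 or 5, day 2 mice 2, 3, 4 or 5, or day 5 mice 2 or 3 (adjusted p 0.0506 to 0.109). It was lost as well with the 2 groups fitted alone (0.163), after quantile normalization (0.0505), with the arrays of a mouse kept apart (0.0715), with the replicate number as a block (0.0537) and without control mouse 4 and day 1 mouse 1 together (0.0553).

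Eif3j1 encodes a loosely bound subunit that contacts the decoding site of the small ribosomal subunit. It was 1.27-fold lower on day 1, by -0.34 ± 0.11 (limma adjusted p 0.036), with control mice between -0.38 and -0.07 and mice of day 1 between -0.81 and -0.41, without overlap. This call was lost after quantile normalization (-0.21, adjusted p 0.187), with a trend and robust prior (0.0524), with the 2 groups fitted alone (0.054), without control mouse 4 and day 1 mouse 1 together (0.112), and without control mice 1, 3 or 4, or day 1 mice 1, 2 or 5 (adjusted p 0.0533 to 0.103).

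The promoter windows of Eif3k, Eif3f and Eif3j1 are shown as examples of the eIF3 genes that fell together on day 1. That of Eif3i, which fell as well, is not shown. Sequences are from RefSeq on GRCm38.p6, 300 bases long, with 250 bases before and 50 from the annotated start, read 5′ to 3′ on the gene's strand. Of 22862 genes with 1 window, the start in the gene annotation was the first of these 50 bases in 17087. In the others the start is placed elsewhere, which bears most on the pyrimidine run below. Capitals mark an E-box, the palindrome CACGTG that MYC and related factors bind, or a C at the annotated start that is followed by at least 4 bases that are C or T, as in mRNAs with a terminal oligopyrimidine tract. The windows lie at chr7:28981839-28982138 on the minus strand for Eif3k, chr7:108934165-108934464 on the plus strand for Eif3f and chr2:122028330-122028629 on the plus strand for Eif3j1.
Eif3k: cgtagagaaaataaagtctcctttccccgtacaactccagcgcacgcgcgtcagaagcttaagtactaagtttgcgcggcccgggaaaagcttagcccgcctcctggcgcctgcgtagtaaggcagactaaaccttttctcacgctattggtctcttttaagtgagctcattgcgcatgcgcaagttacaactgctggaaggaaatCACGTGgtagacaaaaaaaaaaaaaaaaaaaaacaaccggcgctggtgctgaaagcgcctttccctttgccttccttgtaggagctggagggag
Eif3f: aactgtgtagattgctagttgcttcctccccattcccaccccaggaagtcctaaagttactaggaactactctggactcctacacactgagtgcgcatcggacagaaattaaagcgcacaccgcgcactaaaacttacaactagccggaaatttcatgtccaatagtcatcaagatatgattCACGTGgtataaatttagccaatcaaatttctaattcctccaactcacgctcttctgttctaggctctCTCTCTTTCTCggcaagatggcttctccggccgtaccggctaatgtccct
Eif3j1: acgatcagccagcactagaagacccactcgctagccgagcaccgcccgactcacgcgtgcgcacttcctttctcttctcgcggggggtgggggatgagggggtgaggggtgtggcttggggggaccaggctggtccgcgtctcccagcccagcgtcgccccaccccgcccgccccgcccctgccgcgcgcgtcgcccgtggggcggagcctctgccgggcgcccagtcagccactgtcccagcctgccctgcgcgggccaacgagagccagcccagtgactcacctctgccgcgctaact
Eif3k held an E-box at -44 to -39, counted from the annotated start as 1 with the base before it as -1. Eif3f held an E-box at -68 to -63 and the run CTCTCTTTCTC at 1 to 11. In Eif3j1 neither pattern is among these letters.

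A window was matched for 23 of the 32 members. The E-box was in 7 of these 23 (30.4%), namely Eif1b, Eif3f, Eif3k, Eif4h, Eif5a, Farsb and Iars, and in 8.09% of the 27025 genes with a window. The pyrimidine run at the start was in 3 (13.0%), Eif2s3x, Eif3f and Wars2, and in 3.01% of all genes. The amino acid response element, searched as TGATGNAAN on both strands, was in 2 (8.7%), Eif2s3x and Iars, and in 4.5% of all genes. Of the 7 genes with an E-box, Eif3k, Eif3f and Eif4h fell on day 1, while Eif1b, Eif5a, Farsb and Iars did not pass. These matches describe letters, not bound sites. The members had to have values in these mice, and the 27025 genes with a window did not. The shares thus come from unlike sets, and enrichment was not tested.

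Of the cap-binding and helicase group, 2 of 3 measured members were lower on day 1, where 8.38% of all genes were. Both calls were lost without day 1 mouse 2. Eif4h encodes a factor that stimulates the helicase eIF4A. Its log2 ratios were -0.12, -0.12, -0.33, -0.07 and 0.07 in control mice and -0.06, -1.12, -0.89, -0.34 and -0.81 in mice of day 1. Of the 5 mice of day 1, 4 lay below every control mouse, and day 1 mouse 1 lay inside the control range. The means were -0.11 ± 0.14 (SD, n = 5) and -0.65 ± 0.43 (SD, n = 5), a log2 fold change of -0.53 ± 0.15 (1.44-fold lower, limma adjusted p 0.0171). On day 2 the values were -0.74, -0.36, -0.77, -0.36 and -0.55, all below the control mice. For day 2 it was -0.44 ± 0.15 (1.36-fold lower, limma adjusted p 0.0409). The day 1 call was lost without day 1 mouse 2 (0.0604) and day 1 mouse 3 (0.0535), and with the 2 groups fitted alone (0.0527), all by limma's adjusted p. The day 2 call was lost after quantile normalization (0.0751), with a trend and robust prior (0.0565), and without control mice 1, 2, 4 or 5, or day 2 mice 1, 3 or 5 (adjusted p 0.0549 to 0.11).

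The Eif4h window is shown for its E-box, in capitals, at -96 to -91. It lies at chr5:134639360-134639659 on the minus strand of GRCm38.p6 and is from RefSeq.
Eif4h: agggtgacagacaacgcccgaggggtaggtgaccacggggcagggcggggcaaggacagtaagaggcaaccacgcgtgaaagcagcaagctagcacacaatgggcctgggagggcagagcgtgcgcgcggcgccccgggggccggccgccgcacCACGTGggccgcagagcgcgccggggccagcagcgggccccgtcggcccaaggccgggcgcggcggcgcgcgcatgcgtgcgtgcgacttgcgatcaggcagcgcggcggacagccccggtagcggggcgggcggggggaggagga

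Eif4e2 encodes 4EHP, a cap-binding protein that does not bind eIF4G and represses translation. Its control values were close together, from 0.13 to 0.26, and on day 1 4 mice lay between -0.42 and -0.18 while day 1 mouse 1 was at 0.32. Its log2 fold change was -0.35 ± 0.12 (1.28-fold lower, limma adjusted p 0.0423). The call was lost with the replicate number as a block (0.0642), with the 2 groups fitted alone (0.0753) and without control mice 1, 2, 3, 4 or 5, or day 1 mice 2, 3, 4 or 5 (adjusted p 0.0543 to 0.125). Eif4e3, a further cap-binding relative, had a log2 fold change of -0.11 and did not pass. Eif4e itself had values in 2 mice and is not a member.

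Eif4enif1 encodes 4E-T, which binds eIF4E and carries it to the nucleus and to cytoplasmic granules of repressed mRNA. Its log2 ratios were -0.18, -0.04, -0.17, -0.10 and 0.01 in control mice. On day 1 they were -0.17, -0.81, -0.83, -0.47 and -0.40, where 4 mice lay below all control mice and day 1 mouse 1 lay within their range. On day 2 they were -0.50, -0.23, -0.81, -0.49 and -0.66, all below the control mice. The log2 fold change was -0.44 ± 0.14 on both days (1.36-fold lower), with limma adjusted p of 0.0294 on day 1 and 0.0269 on day 2. The day 1 call was lost without control mice 2 or 5, or day 1 mice 2 or 3 (adjusted p 0.0526 to 0.0901), and the day 2 call without control mice 2 or 5, or day 2 mice 1, 3 or 5 (adjusted p 0.0502 to 0.0838). On day 5 the values were -0.08, 0.02, -0.26, -0.43 and 0.27, and the difference of day 5 over day 2 was 0.44 ± 0.14 (limma adjusted p 0.0233), lost without day 2 mouse 3, or day 5 mice 2 or 5 (adjusted p 0.054 to 0.0787). Eif4ebp2, which binds eIF4E when mTORC1 is inactive, had log2 fold changes of -0.27 on days 1 and 2 that did not pass. Its relative Eif4ebp1 had values in 4 mice.

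**Figure D2:**
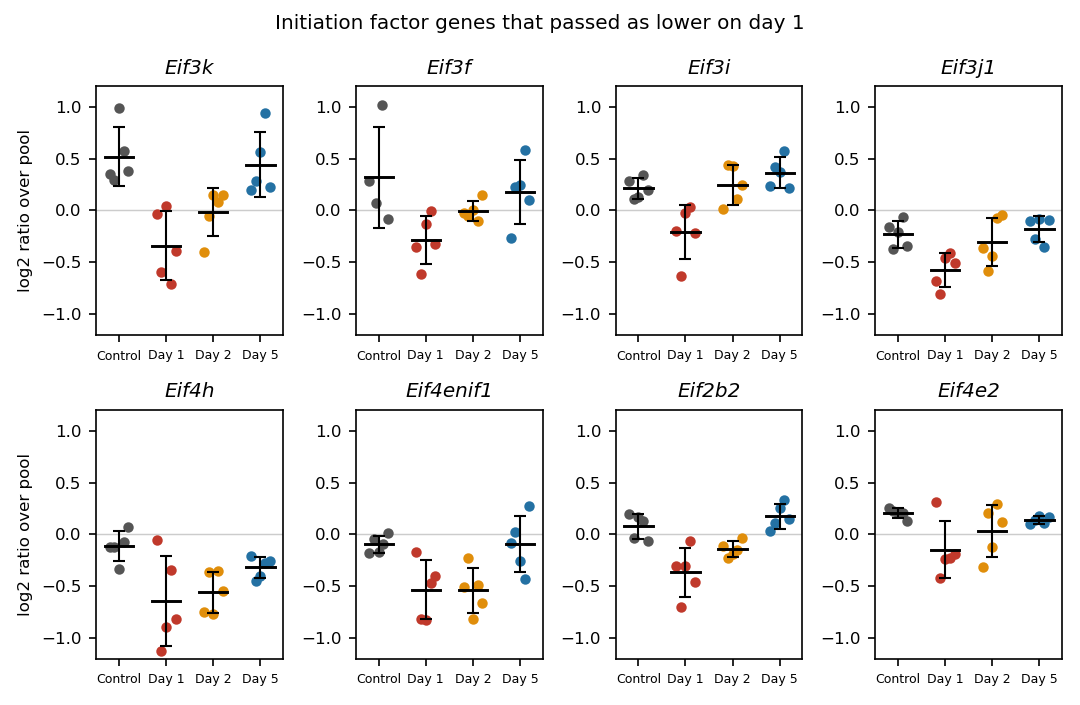
Points are mice, and bars are the mean and SD of each group, on the log2 ratio over the reference pool, for the 8 initiation genes that were lower on day 1. Control and day 1 points do not overlap for Eif3k, Eif3i and Eif3j1, and day 1 mouse 1, the leftmost red point, sits high for Eif4h, Eif4enif1 and Eif4e2.

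Eif2b2 encodes the beta subunit of eIF2B, the factor that reloads eIF2 with GTP. Its log2 ratios were 0.19, -0.03, 0.17, 0.13 and -0.07 in control mice and -0.30, -0.70, -0.31, -0.06 and -0.46 on day 1. Day 1 mouse 4 lay within the control range, at its lower edge, and the other mice of day 1 lay below it. The means were 0.08 ± 0.12 (SD, n = 5) and -0.36 ± 0.24 (SD, n = 5), a log2 fold change of -0.44 ± 0.11 (1.36-fold lower, limma adjusted p 0.00604), and the call held in every alternative and every fit without 1 mouse. Day 2 values of -0.11, -0.23, -0.19, -0.15 and -0.03 did not pass against control. From day 2 to day 5 Eif2b2 rose by 0.32 ± 0.11 (1.24-fold, limma adjusted p 0.0352) with no overlap, a call lost without day 2 mice 1, 2, 3 or 4, or day 5 mice 3 or 4 (adjusted p 0.0533 to 0.0886).

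The subunits of eIF2 itself did not pass in any comparison. Eif2s2, the beta subunit, had a log2 fold change of -0.05 on day 1 and of 0.25 ± 0.1 on day 2 (limma adjusted p 0.0669), with all mice of day 2 above all control mice. Eif2s3x, the X-linked gamma subunit, lay within 0.05 of control on each day. The genes of the eIF2 kinases, Eif2ak1, Eif2ak2, Eif2ak3 and Eif2ak4, were annotated, but 3 had no value and Eif2ak4 had values in 4 mice, so the family is not described.

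Eif1b, a close relative of the start-codon factor eIF1, had log2 fold changes of -0.28 on day 1 and -0.24 on day 2 that did not pass. From day 2 to day 5 it rose by 0.46 ± 0.15 (1.37-fold, limma adjusted p 0.0282). This call was lost after quantile normalization (0.0738), with the arrays of a mouse kept apart (0.0751), with the probe that had most values (0.109) and without day 2 mouse 1, or day 5 mice 3 or 4 (adjusted p 0.0719 to 0.117). Eif1b had 2 probes, of which 1 had no value on day 5, so its day 5 values rest on the other. Eif1ad, a nuclear protein with an eIF1A-like domain, differed among the groups by the F test (limma adjusted p 0.0191) but passed in no single comparison, with a log2 fold change of -0.26 ± 0.11 on day 1.

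Against the direction of the other initiation members called on day 1, Eif6 rose. Eif6 binds the large ribosomal subunit and keeps it from joining the small subunit too early, and it is needed to make that subunit. Control values were 0.26, -0.12, -0.25, 0.04 and 0.36, the 4 mice measured on day 1 had 0.85, 0.58, 0.33 and 0.50, and day 2 gave 0.46, 0.41, 0.34, 0.46 and 0.30. Control mouse 5 reached into the range of both days, and the other control mice lay below. The means were 0.06 ± 0.25 (SD, n = 5), 0.56 ± 0.22 (SD, n = 4) and 0.40 ± 0.07 (SD, n = 5). The log2 fold change was 0.51 ± 0.12 on day 1 (1.42-fold higher, limma adjusted p 0.00828) and 0.34 ± 0.12 on day 2 (1.26-fold, 0.0472). Quantile normalization took the day 1 value to 0.36 (0.0848) and the day 2 value to 0.26 (0.202), and neither then passed. The day 2 call was also lost with the 2 groups fitted alone (0.0555), with a trend and robust prior (0.0619), with a filter of at least 2 mice a group (0.0521), without control mouse 4 and day 1 mouse 1 together (0.0524), and without control mice 2, 3 or 4, day 1 mouse 5, day 2 mice 1, 2, 3 or 4, or day 5 mice 2 or 3 (adjusted p 0.0524 to 0.135).

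Of the 5 elongation members 0 passed on any day against control, where 19.1%, 19.2% and 2.62% of all genes did on days 1, 2 and 5. Their median log2 fold change on day 1 was -0.27. Eef1a1, which carries charged tRNAs to the ribosome, was measured in 13 mice. Its values were 0.59, -0.09 and 0.58 in 3 control mice, 0.63, 0.19, 0.04 and 0.30 in 4 mice of day 1, 0.88, 0.91 and 0.85 in 3 of day 2 and 1.03, 0.79 and 0.99 in 3 of day 5. All values of days 2 and 5 lay above all values of the control mice and of day 1. The differences from control were -0.07 ± 0.17, 0.52 ± 0.18 and 0.58 ± 0.18 on the 3 days, with limma adjusted p of 0.807, 0.0545 and 0.128, while its F test passed (0.014). Eef1a1 has close relatives and processed copies in the genome, and whether the probe separates them was not tested.

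Eef1b2 and Eef1d, subunits of the factor that reloads eEF1A, had log2 fold changes of -0.41 ± 0.16 (limma adjusted p 0.0748) and -0.27 ± 0.15 (0.193) on day 1. Eef1b2 differed among the groups by the F test (adjusted p 0.00898), with 0.11, -0.57, -0.10, -0.57 and 0.05 on day 1 and 0.29, 0.58, 0.58, 0.70 and 0.37 on day 5. Those day 1 values all lay below those of day 5, a difference that was not tested. Control mice ran from -0.38 to 0.71 and overlapped both days, and day 1 mice 2 and 4 lay below every control mouse. Eef1b2 passed in no single comparison. Eif5a, which helps ribosomes past difficult stretches of peptide, had a log2 fold change of 0.03 ± 0.13. Eef1akmt2, a methyltransferase of eEF1A, had a log2 fold change of -0.33 ± 0.13 (adjusted p 0.0677). Of the release factor genes that end translation, Etf1 had values in 3 mice and Gspt2 in 0, so neither is a member.

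**Figure D3:**
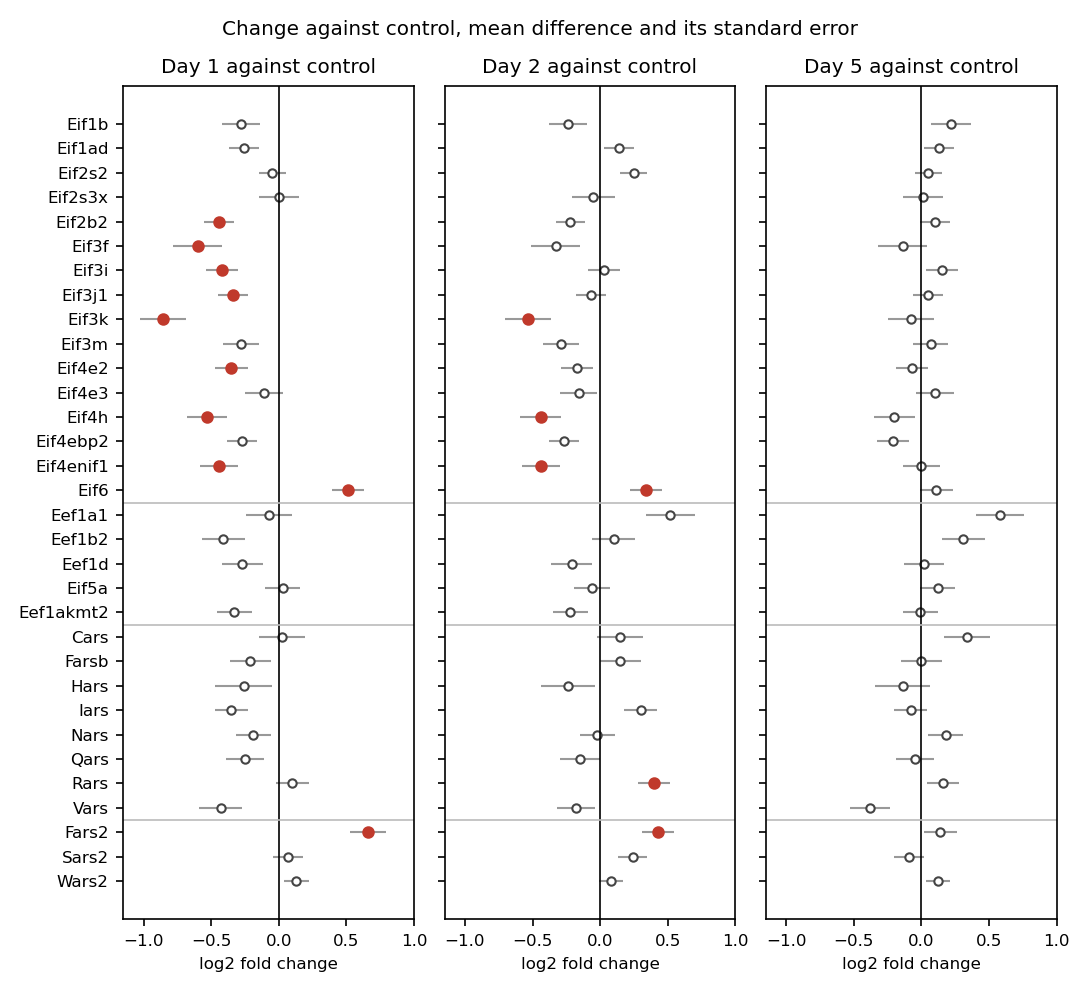
Points are log2 fold changes against control and bars their standard errors, for the 32 members by role on days 1, 2 and 5. Filled red points passed an adjusted p under 0.05 by limma. On day 1 8 points to the left and 2 to the right are filled, on day 2 3 on each side, and on day 5 none.

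On day 2, 6 members passed against control, against 19.2% of all genes tested, with 3 higher and 3 lower where the share of all genes was 9.61% in each direction. The 3 lower members, Eif3k, Eif4h and Eif4enif1, had passed as lower on day 1 as well, and both comparisons use the same control mice. The member median was -0.07, beside -0.02 over all genes. The count fell to 1 without day 2 mouse 1, where 11.3% of all genes passed, and to 2 without control mouse 4, where 15.2% did. It was 3 without control mouse 2 (17.2% of all genes) or day 2 mouse 3 (13.2%).

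The cytosolic synthetases had 8 members, Cars, Farsb, Hars, Iars, Nars, Qars, Rars and Vars. On day 1 0 of them passed, beside 19.1% of all genes, with log2 fold changes from -0.43 (Vars) to 0.1 (Rars) and a median of -0.23. On day 2 1 of 8 passed, beside 19.2% of all genes. This was Rars, the arginine enzyme and part of the multisynthetase complex. Its values were 0.18, -0.10, 0.17, -0.01 and -0.12 in control mice, 0.08, 0.40, -0.14 and 0.17 in 4 mice of day 1 and 0.44, 0.54, 0.45 and 0.28 in 4 mice of day 2. Every measured mouse of day 2 lay above every control mouse, and the highest of day 1 lay among those of day 2. The means were 0.03 ± 0.14 (SD, n = 5) in control mice and 0.43 ± 0.11 (SD, n = 4) on day 2, a log2 fold change of 0.4 ± 0.12 (1.32-fold higher, limma adjusted p 0.0195). Without day 2 mouse 1 the adjusted p was 0.0504.

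Iars, the isoleucine enzyme of the same complex, had the largest difference between days 1 and 2 of all members. Its values were -0.04, -0.38, -0.26, 0.07 and -0.10 in control mice and -0.84, -0.43, -0.49, -0.22 and -0.47 on day 1, when it had a log2 fold change of -0.35 ± 0.12 that did not pass (limma adjusted p 0.0517). Day 2 gave 0.04, 0.20, -0.01, 0.28 and 0.24 and day 5 -0.12, -0.41, 0.15, -0.44 and -0.28. All mice of day 2 lay above all mice of day 1. From day 1 to day 2 Iars rose by 0.64 ± 0.12 (1.56-fold, limma adjusted p 0.00574), a call that held in every alternative and every fit without 1 mouse. From day 2 to day 5 it fell by 0.37 ± 0.12 on the log2 scale (1.3-fold, limma adjusted p 0.0349), which was lost without day 2 mice 2, 4 or 5, or day 5 mice 2, 4 or 5 (adjusted p 0.0571 to 0.0932). Over all genes tested 2.1% passed between days 1 and 2, and 2 of 32 members did, Iars and Eif3i, both higher on day 2. All 8 cytosolic synthetases had a positive difference of day 2 over day 1, with a median of 0.21. So had 23 of the 32 members, with a median of 0.15. Over all genes 55.2% lay below 0, and the median was -0.02. Of the 8 synthetases only Iars passed, and all 8 differences use the same mice of day 1.

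The Iars window is shown because the gene rose between days 1 and 2 and because it holds both an E-box and a match to the amino acid response element, which ATF4 and its partners bind. Both are in capitals, at -69 to -64 and as ATTGCATCA, on the opposite strand, at 7 to 15. It lies at chr13:49681880-49682179 on the plus strand of GRCm38.p6 and is from RefSeq.
Iars: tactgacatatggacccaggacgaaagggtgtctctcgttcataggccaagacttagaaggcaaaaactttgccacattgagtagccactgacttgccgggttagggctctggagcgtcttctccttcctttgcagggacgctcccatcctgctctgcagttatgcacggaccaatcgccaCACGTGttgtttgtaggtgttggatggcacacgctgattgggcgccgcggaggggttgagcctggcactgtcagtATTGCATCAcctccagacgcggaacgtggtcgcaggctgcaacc

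The mitochondrial synthetases had 3 members. Fars2, which charges mitochondrial tRNA with phenylalanine, rose most of all 32 members on day 1. Its values were -0.04, 0.03, 0.05, -0.37 and 0.03 in control mice, 1.00, 0.71, 0.17 and 0.50 in 4 mice of day 1, 0.31, 0.40, 0.41, 0.40 and 0.33 on day 2 and 0.0014, 0.17, 0.30, -0.06 and 0.0038 on day 5. All measured mice of days 1 and 2 lay above all control mice, and control mouse 4 was the lowest. The means were -0.06 ± 0.18 (SD, n = 5), 0.60 ± 0.35 (SD, n = 4) and 0.37 ± 0.05 (SD, n = 5). The log2 fold change was 0.66 ± 0.13 on day 1 (1.58-fold higher, limma adjusted p 0.00216) and 0.43 ± 0.12 on day 2 (1.35-fold, 0.0193). The day 1 call held in every alternative and every fit without 1 mouse. The day 2 call was lost without control mouse 4 (0.0588) and with the arrays of a mouse kept apart (0.161). Fars2 had 2 probes. For 1 of them all measured mice of days 1 and 2 lay above all control mice, and for the other day 1 mouse 4, at 0.155, lay below control mouse 5, at 0.172. Its cytosolic counterpart Farsb had a log2 fold change of -0.21 on day 1 that did not pass.

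The Fars2 window is shown beside that of Iars for comparison; none of the 3 patterns is among its letters. It lies at chr13:36117393-36117692 on the plus strand of GRCm38.p6 and is from RefSeq.
Fars2: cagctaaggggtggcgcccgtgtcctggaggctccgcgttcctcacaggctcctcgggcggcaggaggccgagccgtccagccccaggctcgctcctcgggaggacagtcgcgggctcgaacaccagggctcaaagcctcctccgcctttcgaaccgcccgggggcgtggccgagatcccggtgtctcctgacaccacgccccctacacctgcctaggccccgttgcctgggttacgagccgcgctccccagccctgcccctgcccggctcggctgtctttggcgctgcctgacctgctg

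Sars2, the mitochondrial serine enzyme, had log2 fold changes of 0.07 on day 1 and 0.24 on day 2 that did not pass. From day 2 to day 5 it fell by 0.32 ± 0.11 on the log2 scale (1.25-fold, limma adjusted p 0.0376), with no overlap between the days. This call was lost with the replicate number as a block (0.05) and without day 2 mice 1, 4 or 5, or day 5 mice 1, 3, 4 or 5 (adjusted p 0.0509 to 0.0887). Wars2, the tryptophan enzyme, stayed between -0.26 and 0.16 in all 20 mice and did not pass.

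**Figure D4:**
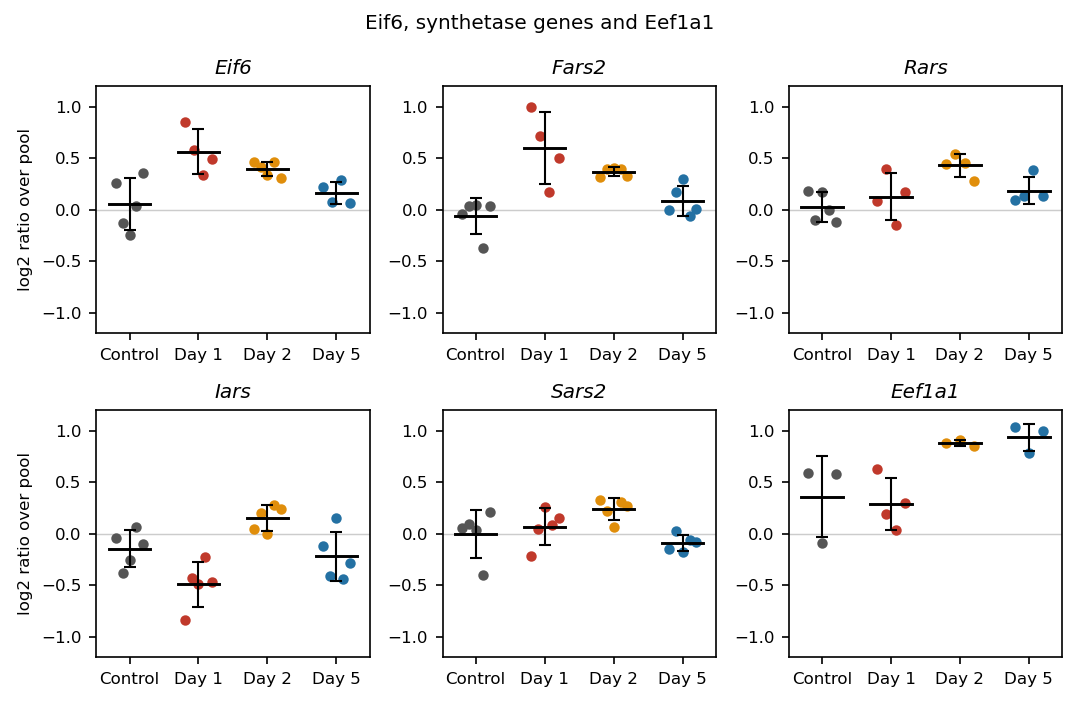
Points are mice, and bars are the mean and SD of each group, on the log2 ratio over the reference pool, for Eif6, the synthetase genes Fars2, Rars, Iars and Sars2, and Eef1a1. Fars2 points of days 1 and 2 lie above all control points, Iars points of day 2 lie above all of day 1, and Eef1a1 points of days 2 and 5 lie above all others.

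On day 5, 0 members passed against control by limma, where 2.62% of all genes did, and 2 had an unadjusted p under 0.05, where 11.0% of all genes did. The member median was 0.05 with 12 members below 0, and log2 fold changes ran from -0.38 (Vars) to 0.58 (Eef1a1). From day 2 to day 5, 5 members passed, against 20.8% of all genes. Eif1b, Eif2b2 and Eif4enif1 were higher on day 5, and Iars and Sars2 were lower. The count fell to 1 without day 5 mouse 4, to 2 without day 2 mouse 1 or day 5 mouse 3, and to 3 without day 2 mice 2, 3 or 4 or day 5 mice 2 or 5.

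Leaving out single mice moved the day 1 count as well. It was 4 of 30 (13.3%) without day 1 mouse 2, the mouse with the lowest member median, where 13.0% of all genes tested passed, so the members' share was then near that of all genes. It was 15 of 32 (46.9%) without day 1 mouse 1, where 25.2% of all genes passed. Without day 1 mouse 1 and control mouse 4 together, chosen after the data had been seen, 13 members passed on day 1, beside 22.8% of all genes, and 8 on day 2, beside 19.2%. The day 1 median lay between -0.294 and -0.24 in all 20 fits without 1 mouse. The count was 6 of 32 (18.8%) when control and day 1 were fitted alone, where 12.1% of all genes passed.

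Of 18 tested genes on 4 lists of neighbouring pathways, 3 passed on day 1 and 3 on day 2 (16.7% each, beside 19.1% and 19.2% of all genes), and 1 on day 5 (5.56%, beside 2.62%). Of 8 tested helpers of cytosolic translation, out of 12 annotated, 1 was lower on each day. This was Paip2, an inhibitor of the poly(A)-binding protein, at -0.43 ± 0.11, -0.54 ± 0.11 and -0.54 ± 0.11 on days 1, 2 and 5 (limma adjusted p 0.0108, 0.00224 and 0.00568). Of 2 tested genes of the mTOR pathway, out of 9 annotated, Ddit4, an inhibitor of mTORC1, was higher by 1.28 ± 0.29 on day 1 and 0.89 ± 0.29 on day 2 (adjusted p 0.00453 and 0.0339). The mitochondrial translation factors had 1 tested gene, out of 2 annotated, Mtif3, which did not pass.

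The integrated stress response is the pathway downstream of eIF2 phosphorylation. Of its 7 tested genes, out of 16 annotated, 1 was higher on day 1, where 10.7% of all genes were, and 1 on day 2, where 9.61% were. The 7 are targets of the pathway and Atf4 itself. The cystine transporter gene Slc7a11 was higher by 0.38 ± 0.12 on day 1 (limma adjusted p 0.0354) and Sesn2 by 0.51 ± 0.15 on day 2 (0.0215). Sesn2, which encodes a stress-induced inhibitor of mTORC1 signalling, was lower by -0.75 ± 0.15 on day 5 than on day 2 (0.000973). Psat1, an enzyme of serine synthesis, was higher by 0.71 ± 0.18 on day 2 than on day 1 (0.0345). Atf4 itself had a log2 fold change of -0.43 ± 0.22 on day 1 that did not pass (0.174).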

How the data were processed

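The authors deposited 1 log ratio per probe and array, read here as log2, with mouse over reference set by the dyes per the labels' protocols. The sources used here do not give the scanner, background correction, normalization or the rule behind blanks (40.7% to 69.7% of probes an array), which were left blank. Of 13443 probes, 10032 had 1 symbol in the platform annotation, 170 several and 3241 none. The 2 arrays of a mouse, then probes of a symbol, were averaged. Testing required values in 3 or more mice per group, which 5297 of 13027 genes and unnamed probes met. limma 3.58.1 (R 4.3.3) fitted 1 mean per group over 20 mice, with empirical Bayes moderation and Benjamini-Hochberg adjustment over all 5297 and calls at an adjusted p under 0.05. The labels call the mice independently harvested, and n = 5 a group limits precision (median SE on day 1 0.132).

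Members and gene lists were chosen with earlier results of these data known. Named with a value in every mouse were, per day against control, up to 5 rises and 5 falls that passed. Other members that passed, the member with the smallest F-test p of roles without a call, fixed genes such as Eef1a1 and up to 4 passing genes a pathway list were named with fold changes; Iars, Eif3i and Eef1b2 got values by mouse for their later changes, after these were seen. Steps were tested on simulated data.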

Additional observations from a re-analysis of the deposited data

Results flagged for a closer look

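A single mouse stood far from the rest of its group in 5 of 121 groups of member values, by Dixon's gap test, which chance passes in about 1 of 20 groups. Eif1ad was at 0.546 in day 2 mouse 4, where the nearest of the other mice was at 0.179. Eif1b was at -0.286 in control mouse 3, the nearest at 0.284. Fars2 was at -0.371 in control mouse 4, the nearest at -0.043, and Sars2 at -0.401 in the same mouse, the nearest at 0.033. Rars was at 0.383 in day 5 mouse 3, with the nearest of the other 3 at 0.136.

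Successive treated days, day 1 with day 2 and day 2 with day 5, differed by limma's test for 6 members, while day 5 was not tested against day 1. From day 1 to day 2 Eif3i rose by 0.45 and Iars by 0.64. From day 2 to day 5 Eif1b rose by 0.46, Eif2b2 by 0.32 and Eif4enif1 by 0.44, while the differences of Iars and Sars2 were -0.37 and -0.32.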

How the results depend on the processing

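Of 23 calls over 14 members, 12 held in all 10 other settings. In these and in all 20 fits without 1 mouse, 4 held (Eif2b2, Eif3k and Fars2 on day 1, Iars between days 1 and 2). Of 690 refits of a call, 111 lost the call, and no fold change reversed. Many refits could not move the fold change, such as those without a mouse of a group not compared. Those that changed only the filter, the prior or the groups fitted could not either. The absence of reversals is thus no measure of stability. Counts of called members on day 1 were 6 with the 2 groups alone (12.1% of all genes) and 4 to 15 without 1 mouse (12.2% to 25.2% of all genes). On day 2 they were 1 to 8 without 1 mouse (11.3% to 22.4% of all genes), and on day 5 0 in each (1.97% to 3.54% of all genes). Between days 1 and 2 they were 1 with the 2 groups alone (0.869% of all genes) and 1 after quantile normalization (1.59%). They were 4 without control mouse 4 and day 1 mouse 1 (chosen after seeing the data, 2.89%) and 1 to 3 without 1 mouse (1.6% to 3.44%). Between days 2 and 5 they were 4 to 7 in the other settings (17.3% to 25.9% of all genes) and 1 to 6 without 1 mouse (15.6% to 23.2%). In the F test they were 10 to 14 and 10 to 17. Replicate numbers were not taken to pair the mice: deviations of same-numbered mice from their group means correlated at -0.377 to 0.312 (median -0.003, 30 pairs) and those of different numbers at -0.34 to 0.334 (median -0.01, 120 pairs). Of 20 mice, 10 correlated best with their own number among 5, a hint from the data and not the design. With the number as a block 10 members passed on day 1, beside 18.6% of all genes, and 9 of these members passed without it. Blank values limit what can be said of 25 of the 57 genes.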
